A study of Homo sapiens with 18 samples.

Results

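A set of 10 genes of the cellular stress and immediate-early responses that MYC is described to repress were examined for MYC binding at their start sites. The genes are GADD45A, GADD45B, DDIT3, NDRG1, ATF3, JUN, FOS, EGR1, KLF6 and DUSP1. They were chosen by name, and each start site was given a window of 2 kb on either side in the hg19 build. ATF3 has 2 start sites, so there are 11 windows for 10 genes. Of the 43222 regions formed by merging all MYC peaks of the series, 37 overlap these windows, and 160 of 151062 listed peaks fall in them.

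MYC occupancy was measured by chromatin immunoprecipitation and sequencing (ChIP-seq) with the antibody N262 in MCF10A, an immortalised line of human breast epithelial cells. All groups carried a MYC expression plasmid (pBABE-hygro-MYC) and a plasmid for the PI3K mutant H1047R with GFP (pMN-IRES-GFP-PI3KH1047R), so no group has MYC at its native level only. All cells also received doxycycline at 2 µg/mL for 72 h, which induced the hairpin of a further plasmid: scramble (pLKO-tetON-puro-shSCR), or either of a pair directed at the histone methyltransferase G9a. The pair is written shG9a_1 and shG9a_4. There were 3 MYC libraries per hairpin, and 9 input libraries are not used here. G9a itself was not measured in these peak lists, nor was the RNA of any gene.

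MYC binds DNA as a dimer with MAX, most often at the E-box CACGTG, and besides the many genes it activates it can lower transcription of others, among them growth arrest and stress genes. G9a places methyl groups on histone H3 at lysine 9, a mark of silent chromatin, and the study asked how it takes part in repression by MYC. Stress and immediate-early genes are quiet or low in unstressed cells and switch on within minutes to hours of DNA damage, unfolded protein, lack of oxygen or growth factor. Their promoters carry sites for signal-driven factors, such as the cyclic AMP response element TGACGTCA, the AP-1 site TGAGTCA and the CArG box of serum response factor.

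RefSeq promoters (GRCh38.p14, 250 bases before to 50 after each start, 35116 in all) were found for 8 of the 10 genes. The E-box CACGTG, which is its own reverse complement, stood in 3 of the 8, GADD45B, KLF6 and DUSP1, and in 7.26% of all promoters. The variant CACGCG, searched on both strands, stood in FOS alone among the 8 and in 11.4% of all. The variant CATGTG, likewise on both strands, was found in 0 of the 8 and in 11.1% of all. Of the response elements, TGACGTCA was found in DUSP1 (1.85% of all promoters), TGAGTCA in DDIT3 on the reverse strand (4.95%), and 2 CArG boxes in EGR1 (1.29%). These 4 promoters are shown because they hold the E-boxes or the response elements discussed with their peaks. Each is the 250 bases that end just before the RefSeq start, 5′ to 3′ on the gene's own strand. Capitals mark CACGTG in GADD45B and KLF6, TGACGTCA and then CACGTG in DUSP1, and the CArG boxes in EGR1.
GADD45B (chr19:2475877-2476126, plus strand): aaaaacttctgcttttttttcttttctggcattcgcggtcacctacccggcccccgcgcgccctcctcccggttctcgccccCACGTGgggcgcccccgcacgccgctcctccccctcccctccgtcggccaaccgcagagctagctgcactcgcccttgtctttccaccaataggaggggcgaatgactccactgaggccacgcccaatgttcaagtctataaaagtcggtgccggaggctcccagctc
KLF6 (chr10:3785210-3785459, minus strand): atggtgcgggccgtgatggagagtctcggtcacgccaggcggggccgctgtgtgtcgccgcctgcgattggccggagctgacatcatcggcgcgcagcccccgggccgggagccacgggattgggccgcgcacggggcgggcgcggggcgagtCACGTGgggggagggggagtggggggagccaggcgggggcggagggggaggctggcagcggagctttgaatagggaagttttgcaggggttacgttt
DUSP1 (chr5:172771196-172771445, minus strand): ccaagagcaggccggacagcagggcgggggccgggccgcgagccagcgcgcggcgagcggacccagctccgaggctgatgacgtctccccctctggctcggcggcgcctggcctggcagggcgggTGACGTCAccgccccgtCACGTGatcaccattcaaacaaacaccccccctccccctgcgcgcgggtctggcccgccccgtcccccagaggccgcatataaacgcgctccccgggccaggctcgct
EGR1 (chr5:138465229-138465478, plus strand): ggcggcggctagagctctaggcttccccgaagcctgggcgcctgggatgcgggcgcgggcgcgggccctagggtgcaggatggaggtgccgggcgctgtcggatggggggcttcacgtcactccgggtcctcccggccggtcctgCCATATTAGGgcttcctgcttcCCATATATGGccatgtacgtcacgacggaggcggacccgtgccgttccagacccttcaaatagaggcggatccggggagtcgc
Counted back from the start, the E-box began at -168 in GADD45B, -97 in KLF6 and -108 in DUSP1. The response element of DUSP1 began at -125, so it lies just before the E-box, and the CArG boxes of EGR1 began at -105 and -83. The sequences are in another build than the peaks, positions were not converted between builds, and a RefSeq start need not be the start used for the window. A match is a stretch of letters and was not tested for binding.

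The shSCR lists held 20118 to 34738 peaks, and 5 of the 6 shG9a lists held 11168 to 17454. The list of shG9a_1 replicate 1 stood apart with 113 peaks, and none of them lay in a window. The main count of kept windows is therefore given with and without it, and it is absent from every fit of signal. Other counts of calls, among them those of merged regions, include it unless stated. The best peak of each window is the one with the lowest q-value. Its fold, the authors' value, divides the pileup at the summit by the background there. Its percentile is its place by q-value within its own list, with 100 for the strongest peak. The lists differ in length, so percentiles describe a peak's standing within a library and show no change between libraries.

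All 11 windows held a MYC peak in at least 1 library, and 9 of them in all 3 shSCR libraries. The exceptions were FOS and the upstream start of ATF3, which had no peak in shSCR replicate 3. Of 4001 bp tiles laid along the genome, 1.91% were called in all 3 shSCR libraries. The tiles were laid without regard to gene starts, so this share is not a background for windows at starts. The share of other start sites called was not computed, so the 9 windows are not shown to exceed it. The windows of GADD45B, DDIT3, NDRG1, the downstream start of ATF3, KLF6 and DUSP1 held a peak in 5 or more of the 6 shG9a libraries, which is termed kept. Those of GADD45A, JUN and EGR1 were called in 4 of 6 and are termed partial, and 0 of the 9 were lost, that is, called in no shG9a library. Among windows of the same length centred on the 14209 regions called in all 3 shSCR libraries, 43.8% were kept and 6.86% lost. Without shG9a_1 replicate 1, all 9 held a peak in 4 or more of the 5 others, against 59.8% of the centred windows. With all 6 shG9a libraries and only peaks of fold 5 or more, or of −log10 q 5 or more, 3 of the 9 were kept. These were DDIT3, the downstream start of ATF3 and DUSP1, and the shares of centred windows were 39.1% and 38.7%.

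By library, the 9 windows called in all shSCR libraries were called as follows. In shG9a_1, 0 of 9 were called in replicate 1, 9 in replicate 2 and 8 in replicate 3, and the shares of centred windows called there were 0.929%, 64.0% and 70.5%. In shG9a_4, 7, 9 and 9 were called in replicates 1, 2 and 3, and the shares of centred windows were 64.4%, 82.3% and 71.9%. The member windows were thus called above the share of centred windows in the 5 libraries with long lists. With only 9 windows, and with no excess of kept windows at a fold or −log10 q of 5 or more, this is no result about these genes. No test was run on this, because the genes were chosen with results of these libraries known.

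**Figure D1:**
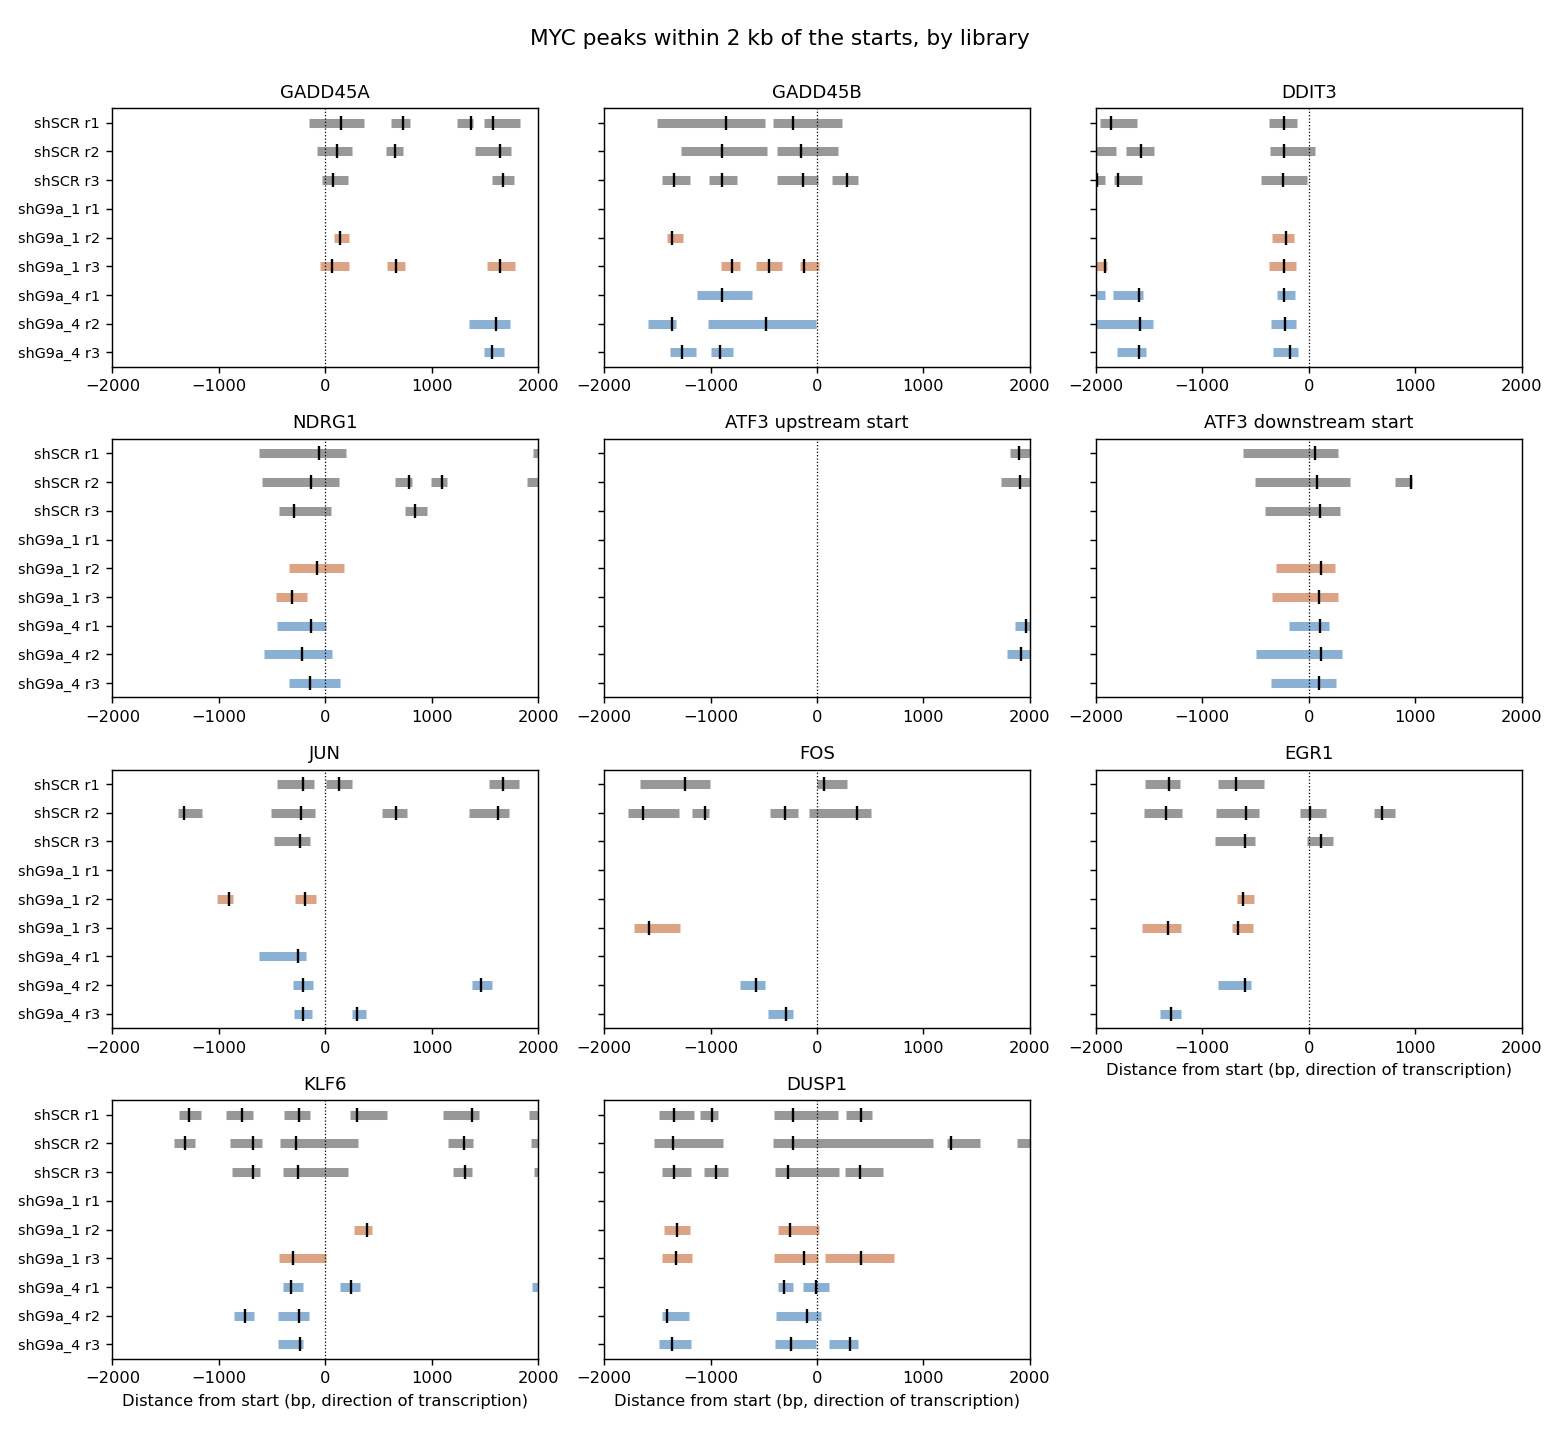
MYC peaks in the 11 windows. The horizontal axis is the distance from the start in bp, in the direction of transcription, and each row is a library; bars are listed peaks and ticks their summits, with shSCR in grey, shG9a_1 in orange and shG9a_4 in blue. The downstream start of ATF3 has a peak at the same place in 8 libraries, KLF6 and DUSP1 have several separate shSCR peaks, and the row of shG9a_1 replicate 1 is empty in every window.

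The shSCR libraries held 29, 36 and 23 of the 160 peaks, those of shG9a_1 0, 11 and 17, and those of shG9a_4 13, 16 and 15. As a share of its own list this was 0.0972%, 0.104% and 0.114% in shSCR, 0.0960% and 0.130% in shG9a_1 replicates 2 and 3, and 0.116%, 0.0917% and 0.116% in shG9a_4. The shares overlapped between the groups, so the larger numbers in shSCR went with longer lists. Their summits lay within 500 bp of a start in 74 of the 160 peaks, and in 47 of the 78 best peaks. All 3 shSCR libraries called 15 of the 37 merged regions, against 32.9% of all merged regions. Of the 15, 6 were kept, 8 partial and 1 lost, against 36.9%, 53.6% and 9.49% of all regions called in all shSCR libraries. These counts are near the background and are no result about these genes. The kept regions were 1 each at GADD45B, DDIT3, NDRG1, the downstream start of ATF3, KLF6 and DUSP1.

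GADD45A encodes a small protein induced by DNA damage that slows the cell cycle and feeds the p38 and JNK kinases. Its window (start at chr1 position 68150860, plus strand) was called in 3 shSCR, 2 shG9a_1 and 2 shG9a_4 libraries. The best peak had a fold of 7.33, 14.02 and 7.16 in shSCR, 5.52 and 6.80 in replicates 2 and 3 of shG9a_1, and 7.79 and 5.87 in shG9a_4 replicates 2 and 3. These peaks stood at percentiles 57.3, 88.0 and 54.3 with shSCR, 27.4 and 49.9 with shG9a_1 and 61.8 and 39.6 with shG9a_4. The shSCR replicate 2 peak was the highest, and the others overlapped between groups. In shSCR and shG9a_1 the best summit lay 67 to 144 bp downstream of the start, whereas in shG9a_4 it lay at 1603 and 1564 bp. The region at the start was called in 3 shSCR, 2 shG9a_1 and 0 shG9a_4 libraries. A second region, 1241 to 1825 bp downstream, was called in 3, 1 and 2. The hairpins therefore differed in which of the 2 regions was listed, a contrast noticed in these lists and not tested.

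GADD45B, the paralogue induced by stress and inflammatory signals, had 1 broad merged region from 1584 bp upstream to 383 bp downstream of its start (chr19 position 2476123, plus strand). It was called in 3, 2 and 3 libraries. The best peak had a fold of 12.8, 10.5 and 8.56 in shSCR, 4.95 and 5.88 in replicates 2 and 3 of shG9a_1, and 8.66, 8.80 and 6.03 in shG9a_4. Its percentile was 87.9, 79.7 and 65.9 with shSCR, 22.2 and 42.2 with shG9a_1 and 73.5, 68.6 and 46.0 with shG9a_4. The lowest values belonged to shG9a_1. Within the broad region the best summit moved between libraries, from 1365 bp upstream in shG9a_1 replicate 2 to 133 bp upstream in shSCR replicate 3. A separate summit 126 to 222 bp upstream, a range of distances that includes that of the E-box from the RefSeq start, was listed in all 3 shSCR libraries and in shG9a_1 replicate 3. In shG9a_4 replicate 2 a single peak from 1028 to 8 bp upstream covered this stretch, with its summit 478 bp upstream. With windows of 1 kb on either side, GADD45B was partial rather than kept, since shG9a_1 replicate 2 then had no peak.

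DDIT3 encodes CHOP, a transcription factor of the unfolded protein response that promotes cell death. Its start is on the minus strand at chr12 position 57914300. The peak over the core promoter had its summit 174 to 239 bp upstream of the start in all 8 libraries with long lists, the tightest position after the downstream start of ATF3 among the kept regions. Its window's best peak had a fold of 13.3, 15.1 and 9.07 in shSCR, 8.36 and 7.46 in replicates 2 and 3 of shG9a_1, and 8.91, 9.89 and 7.22 in shG9a_4. The percentiles were 88.8, 89.8 and 69.4 with shSCR, 75.2 and 59.8 with shG9a_1 and 74.5, 79.9 and 60.6 with shG9a_4. In shSCR replicate 2 the best peak was a second one 2004 bp upstream, and the core peak there had a fold of 11.9. Only shSCR replicates 1 and 2 were above all shG9a libraries. The second region, 1455 to 2259 bp upstream, was called in 3, 1 and 3 libraries.

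NDRG1, a stress- and hypoxia-induced protein named for its decrease under N-MYC, had its start at chr8 position 134309547 on the minus strand. One region from 619 bp upstream to 195 bp downstream was called in 3, 2 and 3 libraries. The best peak had a fold of 9.73, 10.4 and 8.74 in shSCR, 6.26 and 4.90 in replicates 2 and 3 of shG9a_1, and 7.50, 9.77 and 6.68 in shG9a_4. Its percentiles were 83.5, 85.9 and 78.5, then 50.0 and 32.4, then 73.1, 77.6 and 58.9. The shSCR libraries were close to each other, with a mean fold of 9.61 ± 0.81 (SD, n = 3), and shG9a_4 replicate 2 reached their range. A further 3 regions, between 656 and 2137 bp downstream, were called in 1 or 2 shSCR libraries and in no shG9a library.

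ATF3, a repressor of the CREB and AP-1 class that is induced by nearly every stress, had the highest mean shSCR fold of the 11 windows at its downstream start (chr1 position 212781970, plus strand), 16.3 ± 5.58 (SD, n = 3), next to 16.0 ± 4.19 (SD, n = 3) at DUSP1, a difference within their spread. The fold was 10.99, 22.1 and 15.8 in shSCR, 9.87 and 12.02 in replicates 2 and 3 of shG9a_1, and 6.16, 13.3 and 8.52 in shG9a_4. The percentiles were 92.5, 97.5 and 92.9 with shSCR, 85.2 and 89.7 with shG9a_1 and 65.0, 92.9 and 84.7 with shG9a_4. The peak thus stood at percentile 84.7 or above in 7 of the 8 lists that held it, shG9a_4 replicate 1 being the other. The summit fell 61 to 118 bp downstream of the start in all 8 libraries. The upstream start (chr1 position 212738676) was different. It had no peak at the start itself, and a weak one 1893 to 1966 bp downstream, at the edge of the window, was called in 2 shSCR, 0 shG9a_1 and 2 shG9a_4 libraries with folds of 3.95, 8.01, 4.77 and 7.51. The nearest region called in all shSCR libraries lay 6185 bp upstream of that start, outside the window, and was called in 5 shG9a libraries.

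JUN and FOS encode the subunits of AP-1, and both are switched on within minutes of growth factor. At JUN (chr1 position 59249785, minus strand) the core region, 91 to 624 bp upstream, was called in 3, 1 and 3 libraries. The window's best peak had a fold of 6.97, 8.81 and 6.88 in shSCR, 6.94 in shG9a_1 replicate 2, and 5.35, 5.52 and 8.64 in shG9a_4. The percentiles were 57.7, 75.7 and 47.6 in shSCR, 57.9 in shG9a_1 replicate 2, and 27.0, 21.2 and 81.0 in shG9a_4. The groups overlapped, and shG9a_4 replicate 3 was nearly as high as the highest shSCR library. In shG9a_4 replicate 2 the best peak lay 1467 bp downstream of the start, and the core peak had a fold of 4.63.

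FOS (chr14 position 75745481, plus strand), like the upstream start of ATF3, was not called in all 3 shSCR libraries. Its window was called in 2 shSCR, 1 shG9a_1 and 2 shG9a_4 libraries, with folds of 6.41 and 9.79 in shSCR replicates 1 and 2, 6.02 in shG9a_1 replicate 3, and 4.21 and 5.61 in shG9a_4 replicates 2 and 3. The percentiles were 47.2, 72.7, 35.7, 2.15 and 33.4 in that order. None of its 4 merged regions was called in all 3 shSCR libraries. The best summit lay 1239 and 1639 bp upstream in shSCR and 1579 bp upstream in shG9a_1, but 571 and 287 bp upstream in shG9a_4. A region over the start was listed in shSCR replicates 1 and 2 only.

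EGR1, a zinc-finger factor that responds to growth factor through serum response factor, had its best peak upstream of its start (chr5 position 137801181, plus strand) in every library that called it. The window was called in 3, 2 and 2 libraries. The best peak had a fold of 7.62, 7.82 and 7.24 in shSCR, 5.40 and 6.58 in replicates 2 and 3 of shG9a_1, and 5.30 and 3.37 in shG9a_4 replicates 2 and 3. Its percentiles were 66.6, 65.2 and 68.7, then 34.2 and 59.4, then 26.2 and 9.89. Each called shG9a library had a lower fold than each shSCR library, but the share of all windows with such an order was not computed. One region, 421 to 882 bp upstream, was called in 3, 2 and 1 libraries, and another, 1192 to 1570 bp upstream, in 2, 1 and 1. The best peaks lay in either of these 2 regions and so not at the same site. The folds did not overlap between groups in the nearer region. In the farther one they did, with 6.58 in shG9a_1 replicate 3 against 4.61 in shSCR replicate 2. The region over the start itself was called in 2 shSCR libraries and in no shG9a library. The 2 CArG boxes, counted from the RefSeq start, lie closer to it than either upstream region lies to the start used here.

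KLF6, a Krüppel-like factor with growth-suppressing activity that is induced by injury and growth factor, had the window with the most shSCR peaks. That window (start at chr10 position 3827473, minus strand) held 15 of them, in 5 merged regions. The best peak had a fold of 7.04, 17.2 and 12.1 in shSCR, 4.96 and 7.57 in replicates 2 and 3 of shG9a_1, and 6.11, 5.93 and 6.41 in shG9a_4. The percentiles were 61.9, 92.8 and 83.2 with shSCR, 14.7 and 61.9 with shG9a_1 and 39.2, 34.8 and 49.1 with shG9a_4. The spread within shSCR was wide, with a mean fold of 12.1 ± 5.08 (SD, n = 3), and shSCR replicate 1 lay below shG9a_1 replicate 3. The best summit lay 238 to 302 bp upstream in 6 libraries, but 391 bp downstream in shG9a_1 replicate 2 and 2080 bp downstream, just outside the window, in shG9a_4 replicate 1. The main region, 447 bp upstream to 576 bp downstream, was called in 3, 2 and 3 libraries. The other 3 regions called in all shSCR libraries were called in 0 or 1 shG9a library: the one 590 to 937 bp upstream and the one 1916 to 2401 bp downstream in 1 shG9a_4 library each, and the one 1106 to 1448 bp downstream in none. That last region, with shSCR folds of 7.12, 6.68 and 8.13, was the 1 lost region of the set.

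DUSP1, a phosphatase that switches off the MAP kinases p38, JNK and ERK, had 2 strong MYC regions (start at chr5 position 172198203, minus strand). The region over the start, 413 bp upstream to 1089 bp downstream, was called in 3, 2 and 3 libraries, and the region 840 to 1534 bp upstream in 3, 2 and 2. The best peak of the window had a fold of 16.4, 19.9 and 11.5 in shSCR, 10.4 and 11.97 in replicates 2 and 3 of shG9a_1, and 7.88, 7.69 and 7.85 in shG9a_4. The percentiles were 95.0, 95.7 and 83.6, then 87.4 and 89.6, then 76.4, 74.7 and 76.1. In shSCR and shG9a_1 this best peak was the upstream one, 1313 to 1357 bp from the start. In shG9a_4 it was the one at the start, 10 to 241 bp upstream, while the upstream peak had a fold of 5.58 and 6.74 in replicates 2 and 3 and was not listed in replicate 1. The distances of the E-box and the response element from the RefSeq start fall in the range of the region over the start and not of the upstream region.

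**Figure D2:**
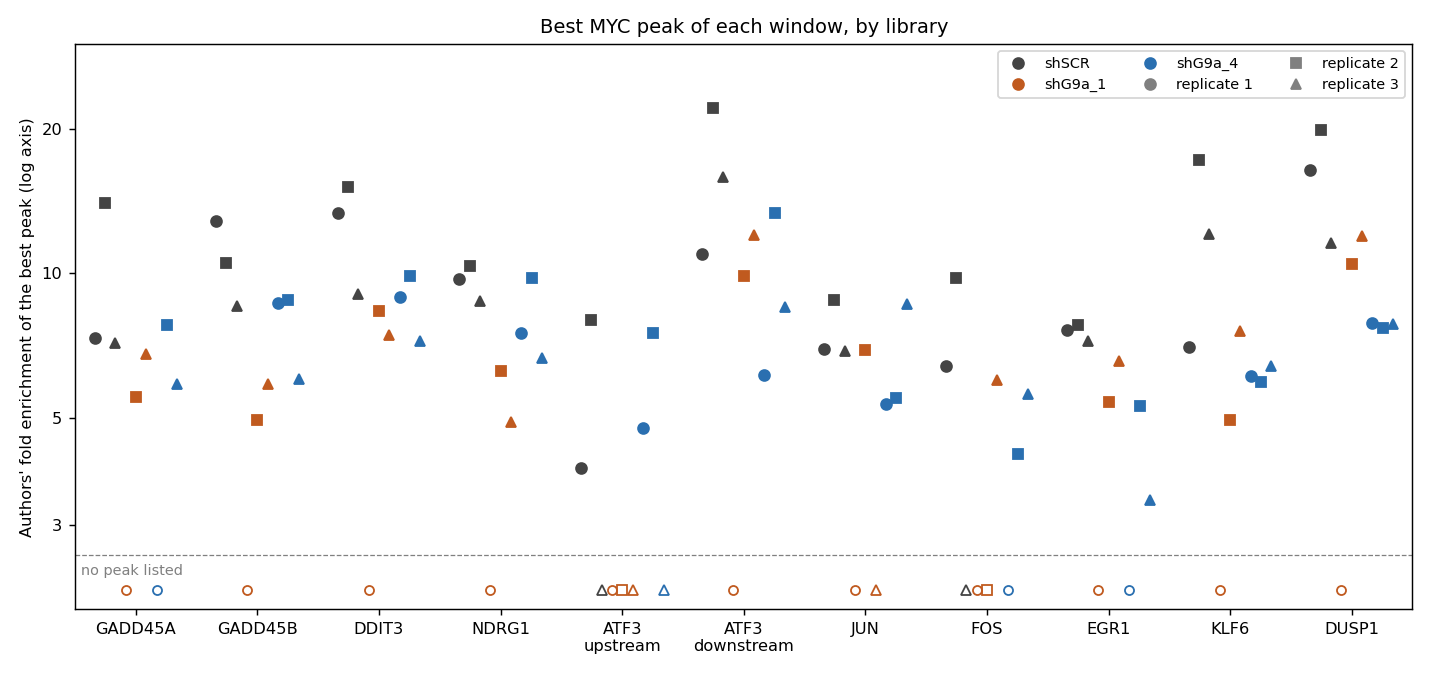
The authors' fold enrichment of the best peak in each window (log axis), by library; colour gives the hairpin, marker shape the replicate, and open markers in the strip below the dashed line stand for libraries with no peak listed. Peaks of shSCR reach 22.1 at the downstream start of ATF3 and 19.9 at DUSP1.

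**Figure D3:**
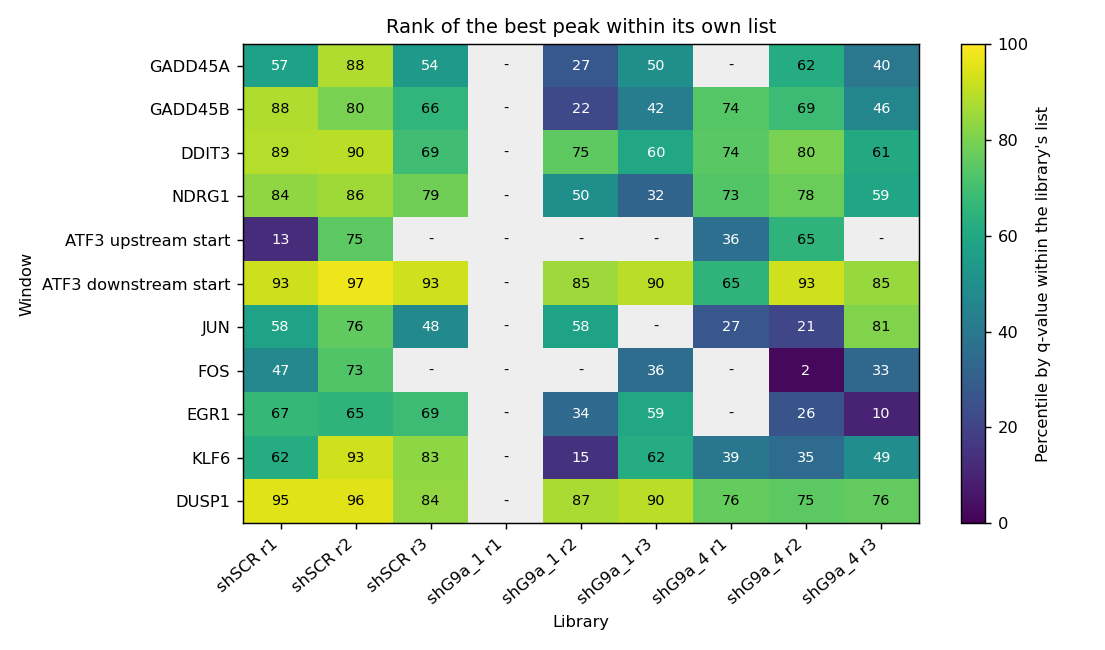
Percentile of the best peak by q-value within its own list, with 100 the strongest; rows are windows, columns are libraries, and a dash stands for no peak listed. The downstream start of ATF3 and DUSP1 stand at 65.0 or above in the 8 libraries with long lists, whereas FOS and EGR1 reach down to 2.15 and 9.89.

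Among the regions called in all 3 shSCR libraries, strength was taken as the mean percentile over those libraries. The median over all 14209 such regions was 66.9. The main regions of the downstream start of ATF3 (94.3), DUSP1 (89.6, and 91.4 for its upstream region), NDRG1 (82.6), DDIT3 (80.7), KLF6 (79.3) and GADD45B (77.8) were above it. GADD45A at its start (66.5), EGR1 (63.2) and JUN (60.3) were below it. Of the 7 regions named as above it, 6 were kept and the upstream region of DUSP1 was partial, and the 3 named as below it were partial. The other member regions called in all shSCR libraries, at 18.5 to 56.8, were also below it. They were partial, except for the lost region at KLF6. The shares kept above and below the median were not computed over all 14209 regions, so this split is no result about these genes. Strength and calls both come from the same lists.

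Signal was compared at the 6 kept regions, which were called in all 8 libraries with long lists. The measure is the pileup at the best summit, in fragments, divided by the lowest background of its library and not by the authors' local background. The best summit is still chosen by q-value, so which peak is listed and read depends on that local background. The other 5 windows have no region called in all 8 libraries and were not tested. A region enters this comparison only if every library called it, so regions that lost their peak are not represented.

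At the downstream start of ATF3 the pileup over background was 84.8, 111 and 73.5 in shSCR, 45.9 and 51.9 in replicates 2 and 3 of shG9a_1, and 25.1, 71.3 and 32.0 in shG9a_4. At KLF6 it was 33.5, 63.5 and 39.2 with shSCR, 18.9 and 24.9 with shG9a_1 and 12.6, 23.1 and 14.5 with shG9a_4. At NDRG1 it was 51.3, 61.5 and 53.9, then 29.7 and 29.0, then 23.9, 35.6 and 17.5. In these 3 regions every shG9a library lay below every shSCR library, by the narrowest margin at ATF3, where shG9a_4 replicate 2 came close to shSCR replicate 3. The KLF6 values were not all read at the same site of its region. The 18.9 of shG9a_1 replicate 2 lay 391 bp downstream and the 12.6 of shG9a_4 replicate 1 lay 241 bp downstream. The others lay upstream, and shG9a_4 replicate 1 also had a peak 318 bp upstream with a value of 16.3.

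At DUSP1 the values were 67.0, 73.8 and 49.0 with shSCR, 37.8 and 41.5 with shG9a_1 and 25.1, 46.1 and 24.2 with shG9a_4. At GADD45B they were 44.6, 41.0 and 29.4, then 27.0 and 24.9, then 18.8, 25.2 and 14.5. These 2 regions did not overlap between groups either, though the GADD45B values were read at summits from 1365 to 133 bp upstream and so not at the same site. At DDIT3, with 44.6, 45.1 and 31.9, then 35.1 and 22.8, then 18.8, 39.8 and 16.5, shG9a_1 replicate 2 and shG9a_4 replicate 2 exceeded the lowest shSCR library. Groups without overlap were found at 5 of the 6 regions and at 56.1% of the 5245 regions called in all 8 libraries.

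**Figure D4:**
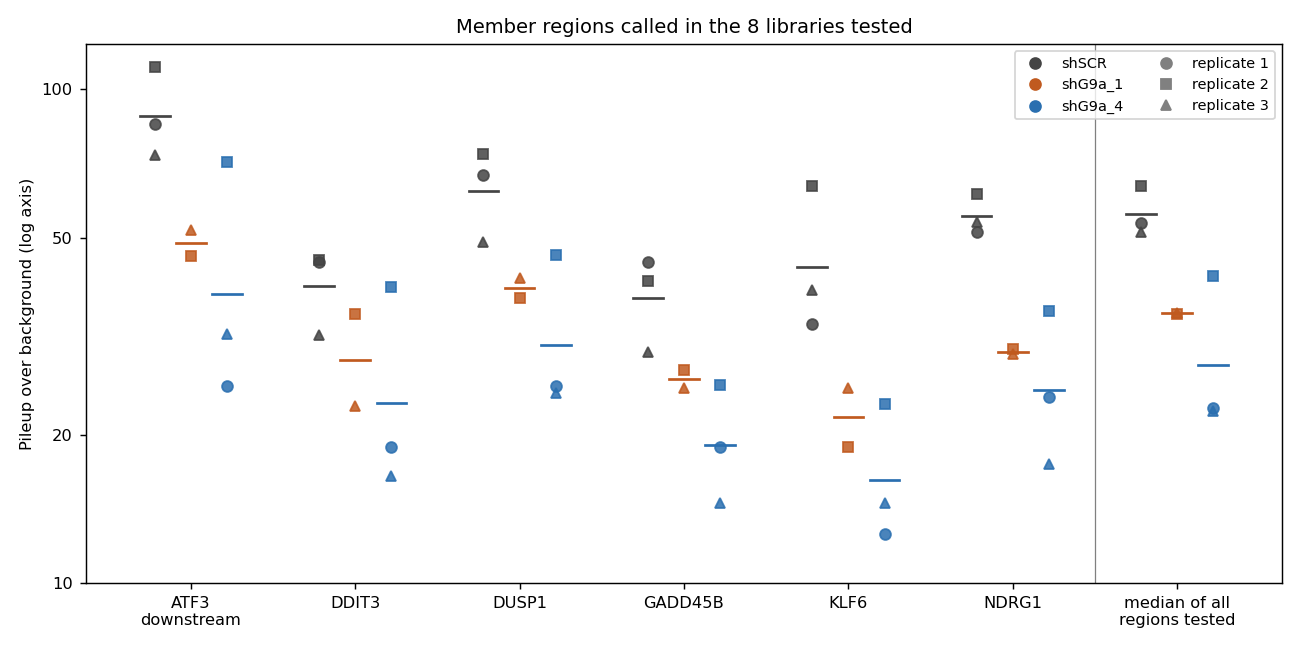
Pileup over background (log axis) at the 6 member regions and, at the right, the median of all 5245 regions tested in each library. Points are libraries (colour for hairpin, shape for replicate) and bars are geometric means per hairpin; the medians at the right run from 51.5 to 63.5 in shSCR and from 22.3 to 41.9 with shG9a, without overlap, as do 5 of the 6 members, the exception being DDIT3.

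In limma on log2 pileup over background, with Benjamini-Hochberg adjustment over the 5245 regions, 5 of the 6 member regions were lower with shG9a than with shSCR. KLF6 differed by -1.27 (SE 0.35, adjusted p = 0.00414), NDRG1 by -1.07 (SE 0.35, adjusted p = 0.00830) and the downstream start of ATF3 by -1.06 (SE 0.33, adjusted p = 0.00701). DUSP1 differed by -0.88 (SE 0.34, adjusted p = 0.0184) and GADD45B by -0.81 (SE 0.35, adjusted p = 0.0305). DDIT3, at -0.67 (SE 0.35, adjusted p = 0.0650), did not pass. In this fit and in those of each hairpin below, limma pooled the variance over all 5245 regions. The p-values are then those of a normal distribution, as if the variance were known. The regions share their library levels, so such p-values can be far too small for 3 and 5 libraries. The calls and shares that rest on them carry the same limit. A two-sided exact permutation test over the 3 shSCR and 5 shG9a libraries gave p = 0.0357 for each of the 5 regions, the smallest value it can give at this size, and p = 0.107 for DDIT3.

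Most of the 5245 regions tested differed in the same direction. Lower signal with shG9a was called at 4069 of the 5245 regions, which is 77.6%, and higher signal at 0.00%, with 0 also at an unadjusted p under 0.05. The median log2 difference was -0.88 over all regions, a ratio of 0.542, and -0.97 over the 6 members. The members' share is near this background and says nothing particular about them. Because all regions share the same 8 library levels, their p-values are not separate pieces of evidence. Without shSCR replicate 2, the library with the most peaks, 0 of the 6 members and 0 regions were lower in limma; the differences at the members were then -0.75 at GADD45B, -0.76 at DUSP1, -0.90 at ATF3, -0.995 at NDRG1 and -0.995 at KLF6. Without shSCR replicate 1, 3 members (KLF6, NDRG1 and the downstream start of ATF3) and 44.4% of all regions were lower. On the authors' fold in place of pileup over background, 2 members (KLF6 and DUSP1) and 29.5% of all regions were lower.

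With each library centred on its own median, which removes the shift common to all regions, 0 of the 6 members differed in limma and 0 did so at an unadjusted p under 0.05. The centred differences were -0.39 at KLF6 (SE 0.22, adjusted p = 0.607), -0.19 at NDRG1, -0.18 at the downstream start of ATF3, -0.01 at DUSP1, 0.07 at GADD45B and 0.20 at DDIT3. KLF6 was farthest from the common shift, at the 4.92 percentile of all regions counted from the lowest, and its difference was within error. Over all regions, 0.0381% were lower and 0.419% higher on the centred scale.

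Each hairpin was also set against the same shSCR libraries. For shG9a_1, with 2 libraries, the differences were -1.01 at KLF6, -0.92 at NDRG1, -0.86 at ATF3, -0.65 at DUSP1, -0.54 at GADD45B and -0.50 at DDIT3, and none passed in limma, as 0.00% of all regions did, with 1571 at an unadjusted p under 0.05. For shG9a_4 they were -1.44 at KLF6, -1.20 at ATF3, -1.17 at NDRG1, -1.04 at DUSP1, -0.99 at GADD45B and -0.79 at DDIT3, and all 6 passed, as did 83.6% of all regions. The highest adjusted p of these was 0.0483, at DDIT3. The difference between the hairpins themselves was 0.26 to 0.45 at the 6 members, higher with shG9a_1, and was called at none of them, as at 0.00% of all regions, with 206 at an unadjusted p under 0.05. The hairpins were therefore not shown to differ at these genes. Libraries shG9a_4 replicates 1 and 3 had 1.90 and 2.65 times the mean shSCR depth, against 0.839 to 1.09 in the other 6 libraries tested, and the part of depth in these differences was not tested. Without those 2 libraries, a setting chosen after the data were seen, 3 of the 6 members (KLF6, NDRG1 and the downstream start of ATF3) were lower with shG9a in limma, against 43.2% of all regions. The differences at the others were then -0.58 at DUSP1 (adjusted p = 0.0676), -0.56 at GADD45B (adjusted p = 0.0963) and -0.34 at DDIT3 (adjusted p = 0.298).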

How the data were processed

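MYC peak lists of 9 libraries were used. Per the submitters' processing notes, the tools were MACS2 2.1.0, Picard 2.7.1, SAMtools 1.3 and STAR 2.5.2a and the build was hg19; their settings were not given in the sources used here. The authors deposited 1 list per library, with a score, a fold enrichment, −log10 p-values and q-values, and a summit offset (another whole-number value, in bp, which the deposited lists count from the peak's start). The deposited score is 10 times the −log10 q. The deposited fold is a ratio, (pileup + 1)/(background + 1), and fold and p together returned a whole-number pileup for 100% of peaks in every list, within 0.001 on the −log10 p scale. Relative depth is the lowest background shared by at least 1% of a library's peaks, over its shortest peak, relative to the shSCR mean. Read numbers are not listed, so no counting interval is given.

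From these values, windows were called where a peak overlapped by at least 1 bp, on chromosomes 1 to 22 and X. Peaks were merged into regions over all lists. Signal was tested with limma 3.58.1 (trended variance, R 4.3.3) over 5245 regions without shG9a_1 replicate 1, at an adjusted p under 0.05. All 10 genes are named by rule. The members, lists and tests were chosen with earlier results of these data known. The labels do not say whether replicate numbers pair the libraries, and the main fit did not pair them. P-values measure the spread between these libraries of 1 cell line, in limma with the variance pooled over regions.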

Additional observations from a re-analysis of the deposited data

How the results depend on the processing

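Of the 9 windows called in all shSCR libraries, 6 were kept and 3 partial. A −log10 q of at least 5 left 3 kept and 6 partial, and so did a fold of at least 5. With equal peak numbers (the top 11168 of each list, without shG9a_1 replicate 1), 5 windows were called in every shSCR library, with 5 kept and 0 partial, where 83.2% of centred windows were kept. Leaving out each library in turn gave 9 to 11 windows in every shSCR library, 6 to 9 kept, 0 to 5 partial and 0 lost. The 9 kept and 0 partial came without shG9a_1 replicate 1, 1 partial without shG9a_4 replicate 1, and 5 partial without shSCR replicate 3.

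For signal, leaving out each library in turn gave 0 to 4816 regions lower with shG9a and 0 to 6 members lower, and 0 to 2964 regions lower with shG9a_1, 1142 to 5290 with shG9a_4 and 0 to 2114 differing between hairpins. Both zeros for the pooled hairpins came without shSCR replicate 2, and 2114 and 2964 came without shG9a_4 replicate 2. Without shSCR replicate 1, 2334 regions and 3 members were lower. The count for shG9a_4 was 1142 without shSCR replicate 2, 1596 without shG9a_4 replicate 1 and 1611 without shG9a_4 replicate 3. DDIT3 passed without shG9a_1 replicate 2 (adjusted p = 0.0472 in limma) and without shG9a_4 replicate 2 (0.0186). Centring left 2 regions lower and 22 higher with shG9a, 0 members lower, and 1 region lower with shG9a_1 and 2 with shG9a_4. The values at GADD45B and DDIT3 then turned positive, to 0.068 and 0.203. On the authors' fold, 1549 regions and 2 members (KLF6 and DUSP1) were lower, 531 with shG9a_1 and 552 with shG9a_4. Without the 2 deepest libraries, added after the data were seen, 3 members and 43.2% of all regions were lower and 1 region was higher. By hairpin, 2971 regions were then lower with shG9a_1 and 66 with shG9a_4. Centring that set gave 2 lower and 11 higher, 0 members, 0 with shG9a_4, and positive values of 0.260 at DDIT3, 0.039 at GADD45B and 0.014 at DUSP1. The causes were not tested.

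With a replicate block, 6 of 6 members were lower (DDIT3 at -0.70, adjusted p = 0.0312 in limma), against 90.0% of all regions. For shG9a_1 alone, 1028 regions were then lower. Deviations of same-numbered libraries correlated at -0.02 to 0.15, and those of other libraries at -0.14 to 0.08. Such correlations across regions cannot see a shift shared by all regions of a library, so they do not decide whether the numbers are pairs. The main fit did not read them as pairs. Requiring calls in at least 3 of 5 shG9a libraries left each count within 1.5 times and 5 members lower. The regions tested then rose from 5245 to 9345, and the share lower with shG9a fell from 77.6% to 62.0%. Windows of other stress and immediate-early genes were not run, as no start sites in this build were used here. Peak lists hold called sites only, so an uncalled window may still be bound.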
